A study of Mus musculus with 15 samples.

Results

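The epithelium of the small intestine was described as it stood in mice that had received no agent. The 3 arrays labelled as controls (Control No. 1, No. 2 and No. 3) were taken from a series of 15, by that label alone. Each control array carried RNA of cells of the intestinal epithelium. The mice were of the BALB/c strain, Wild-type by genotype, aged 10 weeks and sampled at time 0. Per the labels, the epithelial layer was loosened for 10 min in 30 mM EDTA and then lifted off with needles, and total RNA was biotinylated for a whole-transcript Affymetrix array. The other 12 arrays came from mice injected with RANKL, a cytokine of the TNF family. They entered only the normalization and the choice of probe set for each gene, and no value was compared with them. The labels give neither the stretch of small intestine that was sampled nor the sex of the mice. They do not say whether the 3 arrays came from separate mice or how many mice went into each, so the spread between them may be technical in part. With 1 group of 3 there was no test between groups, and every statement is a level, a rank or a spread.

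The lining of the small intestine is renewed continually from stem cells at the base of the crypts. Their daughters divide, move up onto the villus and become absorptive enterocytes or one of several secretory types. Goblet cells make mucus, Paneth cells make antimicrobial proteins and stay at the crypt base, enteroendocrine cells release hormones, and tuft cells sense luminal chemicals. M cells, which lie over lymphoid follicles and pass antigen to them, are few in the tissue as a whole. Enterocytes differ along the gut: the upper part absorbs sugars, iron and most fat, and the ileum recovers bile acids and vitamin B12. Sheets peeled off with EDTA also carry the lymphocytes that sit between the epithelial cells. RNA was measured in bulk, so fewer cells of a type and less RNA per cell cannot be told apart.

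Levels are log2 of the deposited intensity after quantile normalization over the 15 arrays. Where 3 values are given for a gene they stand in the order Control No. 1, No. 2 and No. 3, and an error after ± is the SD over these 3 arrays (n = 3). A gene's value is the brightness of its probe set. Probes bind with different strength, so a rank orders probe sets by brightness, not transcripts by number, and no fold is given between genes. In all, 19938 genes had a probe set that carried their symbol alone. The median deposited intensity was 153, 150 and 153 on the 3 arrays, and their number limits the precision of every level. A further 1621 probe sets carried several symbols and are not counted among the genes.

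A background level was read from 1191 genes for odorant, pheromone and trace amine receptors, which serve smell and are not known as intestinal products. Their median was 6.11, 6.34 and 5.93, and their 95th percentile, used as the threshold of each array, was 7.36, 7.64 and 7.05. Among all genes, 8408 of 19938 (42.2%) lay above the threshold on every control array and 11518 (57.8%) on at least 1. By the way the threshold was set, few receptor genes could pass, and 22 of 1191 (1.85%) did. The receptor genes were not alike across arrays: 734 of the 1191 (61.6%) were highest in Control No. 2 and lowest in Control No. 3, an order that 1897 of all 19938 genes (9.51%) showed. It was not the order of all dim genes. Of 38 genes for photoreceptors, sperm, skeletal muscle and skin, 2 (5.26%) were in that order, and their median was 6.43, 6.39 and 6.57. Of these 38, those above background were Cryaa, a lens crystallin, at 7.91 ± 0.01 and Acta1, skeletal muscle actin, at 7.81 ± 0.06. A gene under the threshold on 1 or more of the arrays is called not above background, so one with a mean near the thresholds may still have exceeded them on another array. The name does not show that the gene was absent.

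Xist, the RNA that coats the inactive X chromosome of female cells, measured 12.05, 12.20 and 12.16 and was among the brightest genes, at rank 207. Of the 8 Y-linked genes measured, 7 lay between 4.92 and 6.27 on every array, with Uba1y the brightest of them at 5.82, 6.06 and 6.27. The exception was Sry, the testis-determining gene, at 8.07, 8.21 and 8.39. Sry therefore counted as above background while Kdm5d (5.32), Uty (5.16), Usp9y (5.04) and Eif2s3y (4.95) had means near the floor of the arrays.

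**Figure D1:**
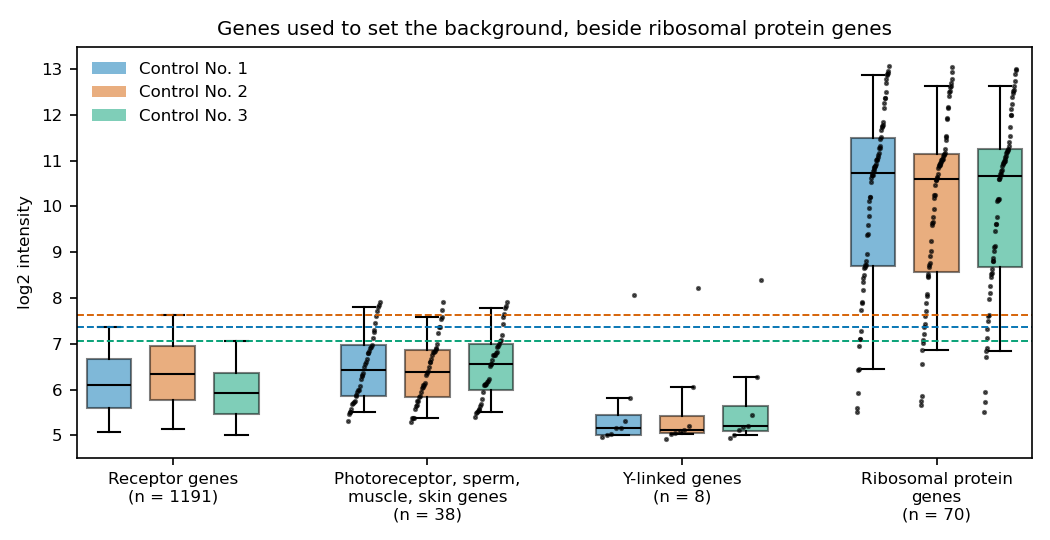
Log2 intensity (vertical axis) of the 1191 receptor genes, 38 photoreceptor, sperm, muscle and skin genes, 8 Y-linked genes and 70 ribosomal protein genes on each control array. Boxes span the middle 50% of genes with the median as a line, whiskers the 5th to 95th percentile, points single genes (not drawn for the receptors), and dashed lines the thresholds of 7.36, 7.64 and 7.05; 59 of the 70 ribosomal protein genes were above all of them, and Sry is the point near 8 among the Y-linked genes.

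The brightest genes were products of the mature epithelium together with a few small RNAs and genes used by all cells. Rn7sk, a small nuclear RNA that restrains transcription elongation, and Baiap2l1, an actin regulator of epithelial cells, shared the top ranks at 14.14. Baiap2l1 rested on a bright probe set: with the mean of its probe sets its level was 12.4 and its rank 131. Anpep, the brush border aminopeptidase N, followed at 14.02, 13.97 and 14.02. Actb (13.95 ± 0.02), the cytoskeletal actin, and Txn1 (13.86 ± 0.02), thioredoxin, came next. Apoa1 (13.80 ± 0.11), the main protein of high-density lipoprotein, was at rank 6. Goblet cell products held 4 of the 25 highest ranks: Zg16 (13.76 ± 0.03), a lectin of the mucus layer, Muc2 (13.75 ± 0.02), its gel-forming mucin, Tff3 (13.66 ± 0.05), a trefoil peptide, and Clca1 (13.38 ± 0.13), a mucus protease. Antimicrobial proteins held another 4: Reg3b (13.73 ± 0.02) and Reg3g (13.54 ± 0.04), lectins that kill bacteria, Lyz1 (13.71 ± 0.02), the lysozyme of Paneth cells, and Lypd8 (13.70 ± 0.02), which keeps flagellated bacteria off the epithelium.

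Enterocyte genes made up much of the remaining top 25. Fabp2 (13.67 ± 0.18), the intestinal fatty acid binding protein, Fabp6 (13.56 ± 0.08), the ileal bile acid binding protein, and the brush border enzymes Naaladl1 (13.45 ± 0.02), Mgam (13.43 ± 0.17) and Sis (13.40 ± 0.17) were all there. Krt8 (13.74 ± 0.05), a keratin of simple epithelia, was at rank 9. The others were Smim24 (13.65 ± 0.01), a small membrane protein, Crip1 (13.63 ± 0.05), a LIM protein abundant in intestine, Guca2b (13.45 ± 0.13), the hormone uroguanylin, mitochondrial COX2 (13.42 ± 0.05), a subunit of cytochrome oxidase, and Rny3 (13.53 ± 0.28), a small cytoplasmic Y RNA. Rny3 had the widest spread of the 25, at 13.84, 13.29 and 13.47. Quantile normalization gives the brightest genes of every array the same few values, which by itself narrows the spread at the top.

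Of the 100 brightest genes on each array, 78 were shared by all 3 and 120 were among the 100 on at least 1. Control No. 2 and No. 3 shared 96 of 100, whereas Control No. 1 shared 82 with No. 2 and 80 with No. 3. Over all 19938 genes Pearson's r was 0.987 for No. 1 with No. 2, 0.988 for No. 1 with No. 3 and 0.991 for No. 2 with No. 3. Spearman's rho was 0.985, 0.988 and 0.986 in the same order. These describe agreement across genes, which are not independent replicates.

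**Figure D2:**
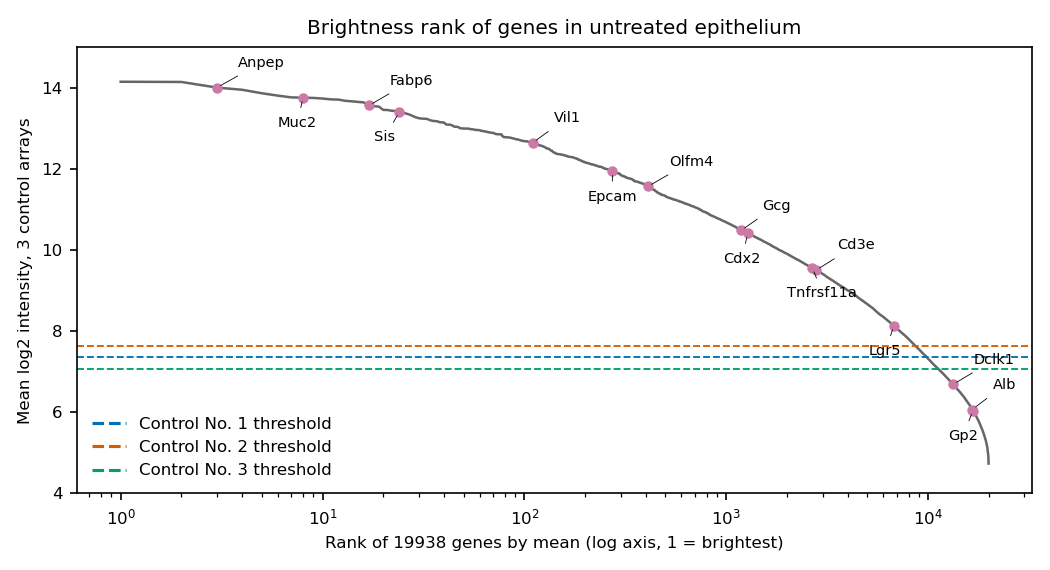
Mean log2 intensity over the 3 control arrays (vertical axis) against brightness rank of 19938 genes (horizontal axis, log scale), with 15 genes labelled and the array thresholds as dashed lines. Anpep, Muc2, Fabp6 and Sis lie at the bright end above 13, Lgr5 at 8.13 lies just above the thresholds, and Dclk1 (6.69), Alb (6.07) and Gp2 (6.04) lie under them.

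The start-site regions of 5 genes are shown because their levels recur below. They belong to a pair of bright antimicrobial genes in the same region of chromosome 6 and to 3 enterocyte genes whose levels were lowest in Control No. 1. Each is the 100 bases before the start of transcription, 5′ to 3′, from RefSeq on GRCm38.p6. Capitals mark TATAAA, the classical TATA box, on the gene's strand, or TTTATG and its reverse complement CATAAA. Cdx2, the transcription factor that specifies intestinal epithelium, is known to bind the Sis promoter at sites with such a core. The matches marked in Lct and Fabp1 are not given as known Cdx2 sites.
Reg3b, chr6:78370785-78370884, plus strand: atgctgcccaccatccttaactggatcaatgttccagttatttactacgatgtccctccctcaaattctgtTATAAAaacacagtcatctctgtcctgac
Reg3g, chr6:78468875-78468974, minus strand: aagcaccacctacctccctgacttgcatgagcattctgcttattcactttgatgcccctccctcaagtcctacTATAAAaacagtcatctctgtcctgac
Sis, chr3:72967864-72967963, minus strand: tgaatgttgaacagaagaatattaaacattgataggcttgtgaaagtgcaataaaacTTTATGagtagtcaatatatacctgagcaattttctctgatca
Lct, chr1:128328319-128328418, minus strand: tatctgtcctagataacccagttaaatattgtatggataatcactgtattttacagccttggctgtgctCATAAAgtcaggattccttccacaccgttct
Fabp1, chr6:71199779-71199878, plus strand: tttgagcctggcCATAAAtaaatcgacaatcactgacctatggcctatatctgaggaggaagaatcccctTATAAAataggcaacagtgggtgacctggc

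Counted from the start of transcription, TATAAA began at -29 in Reg3b, at -27 in Reg3g and at -30 in Fabp1. The Reg3b and Reg3g stretches were identical at 73 of 102 aligned columns (71.6%). TTTATG began at -43 in Sis, and CATAAA at -31 in Lct and at -88 in Fabp1. Among the 15562 genes with a promoter in the RefSeq table, TATAAA with its first base from -40 to -20 was found in 440 (2.83%), and in 3 of the 75 brightest-100 genes with an entry (4%). TTTATG on either strand within 250 bases before the start was found in 1609 of the 15562 (10.3%), in 15 of those 75 (20%) and in 56 of 791 among the 1000 brightest (7.08%). The lists differed: it was found in 6 of 18 lipid absorption genes (33.3%) and 3 of 16 digestive genes (18.8%), but in 1 of 31 transport genes (3.23%) and 1 of 29 oxidative phosphorylation genes (3.45%). It was found in 505 of 6762 genes above background (7.47%) and in 1104 of 8800 not above it (12.5%), so the motif was not commoner among detected genes as a whole. CAAAGTCCA, a motif bound by Hnf4a, was found on either strand in 78 of the 15562 (0.501%) and in 1 of the 75. A gene with several start sites was counted once if any of them held the motif, and TATAAA and TTTATG do not contain each other. A match is a description of the letters and not evidence of a bound site.

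All 15 epithelial identity genes were above background (list median 12.06, against 7.32 for all 19938 genes). Epcam, an adhesion molecule of epithelia, measured 11.88, 11.99 and 11.93. Cdh1, which encodes E-cadherin, measured 12.02, 12.07 and 12.09. Both were steady between arrays, as were Krt8 and Krt19 (12.45 ± 0.05), keratins of simple epithelium. Muc13 (13.17 ± 0.12), a membrane mucin, Pigr (13.14 ± 0.07), the receptor that carries IgA across the epithelium, Cdh17 (12.78 ± 0.18), an intestinal cadherin, and Krt20 (12.66 ± 0.27), a keratin of differentiated cells, were brighter still. The labelled cell type thus had its defining genes far above the thresholds on every array.

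Enterocyte digestion was represented by 15 of 18 genes above background, with a list median of 12.64. Besides Anpep, Naaladl1, Mgam and Sis, Enpep (13.09 ± 0.17) and Mep1b (12.99 ± 0.15), both brush border peptidases, led the list. Alpi, intestinal alkaline phosphatase, measured 12.52, 12.64 and 12.72. Lct, the lactase of milk digestion, differed most between arrays, at 8.07, 10.46 and 10.73. Not above background were Akp3 (7.29), a duodenal phosphatase, Folh1 (5.96), a folate hydrolase, and Tmprss15 (5.43), the enteropeptidase that activates trypsinogen in the duodenum. Sis was lower in Control No. 1 than in the other two, at 13.20 against 13.49 and 13.50.

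Transport genes were above background in 31 of 34 cases (list median 11.33). The glucose transporter Slc5a1 measured 12.57, 13.00 and 13.00, and Slc34a2, which takes up phosphate, measured 12.52, 12.96 and 13.07. Cubn (12.85 ± 0.31), the receptor for vitamin B12 bound to intrinsic factor, Slc15a1 (12.64 ± 0.34), the peptide transporter, and the paired bile acid exporters Slc51b (12.68 ± 0.10) and Slc51a (12.59 ± 0.11) completed the top 6. Those not above background all handle minerals in the upper intestine: S100g (7.30), a calcium-binding protein, Trpv6 (6.31), a calcium channel, and Cybrd1 (7.26), the iron reductase. Among lipid genes, 20 of 23 were above background (median 12.08), led by Apoa1, Fabp2, Fabp6, Apoa4 (13.04 ± 0.16), Npc1l1 (12.98 ± 0.25), which takes up cholesterol, and Apob (12.91 ± 0.22), the protein of chylomicrons. Scarb1 (7.24), Bco1 (6.80) and Cd36 (6.64), which take up or cleave lipids and carotenoids mainly in the upper gut, were not. Structural genes of the brush border were above background in 17 of 18 cases, with Cdhr5 (12.96 ± 0.07) and Cdhr2 (12.49 ± 0.17), cadherins that link microvilli, Pls1 (12.71 ± 0.29) and Vil1 (12.64 ± 0.23), actin bundlers, Slc9a3r1 (12.29 ± 0.02), a scaffold, and Myo1a (12.22 ± 0.17), a microvillus myosin, at the top. Cdhr1, a photoreceptor relative of these cadherins, was at 6.13.

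Genes known from the upper and the lower small intestine were both present, with the lower set brighter by its list median and more complete. Of 27 proximal genes, 20 were above background (median 9.56), and of 23 distal genes, 21 (median 12.59). The brightest distal genes were Lypd8, Fabp6 (13.54, 13.65 and 13.49), Reg3g, Naaladl1, Clec2h (13.30 ± 0.15) and Muc3 (12.99 ± 0.14). Slc10a2, the ileal transporter that takes up bile acids, measured 11.87, 11.81 and 11.65. Osr2, a transcription factor of the lower small intestine, measured 11.32, 11.17 and 11.06. Both varied little between arrays. Fgf15, the ileal hormone that restrains bile acid synthesis in the liver, varied more, at 10.39, 11.40 and 11.97. Distal genes not above background were Slc7a14 (6.83) and Insl5 (6.34), the latter a hormone of colonic endocrine cells. Slc10a2, Osr2 and Fgf15 were named after their values were seen.

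Proximal genes covered a wider range. Apoa1, Apoa4, Slc5a1, Mep1a (12.75 ± 0.21), a meprin subunit, Mttp (12.55 ± 0.25), which loads lipid onto Apob, and Rbp2 (12.49 ± 0.26), a retinol carrier, were all bright. Fabp1, the liver-type fatty acid binding protein of the upper intestine, was mid-ranked at 8.72, 9.68 and 10.28. Gata4, the transcription factor that keeps the jejunum from taking on ileal character, measured 8.53, 9.30 and 9.41. In both, Control No. 1 stood apart below the other arrays. The 7 proximal genes not above background were Onecut2, which was under the threshold in Control No. 2 alone (7.84, 7.58 and 7.70), S100g, Cybrd1, Bco1, Cyp2b10 (6.77), Pdx1 (6.57) and Hephl1 (5.92). Pdx1, a duodenal transcription factor, lay under the threshold of every array. The labels do not state which stretch was taken, and the lists share genes with the enterocyte lists above. They were compiled from general knowledge, but with earlier results of these data known. Their medians therefore describe the probe sets chosen and measure no position along the gut.

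**Figure D3:**
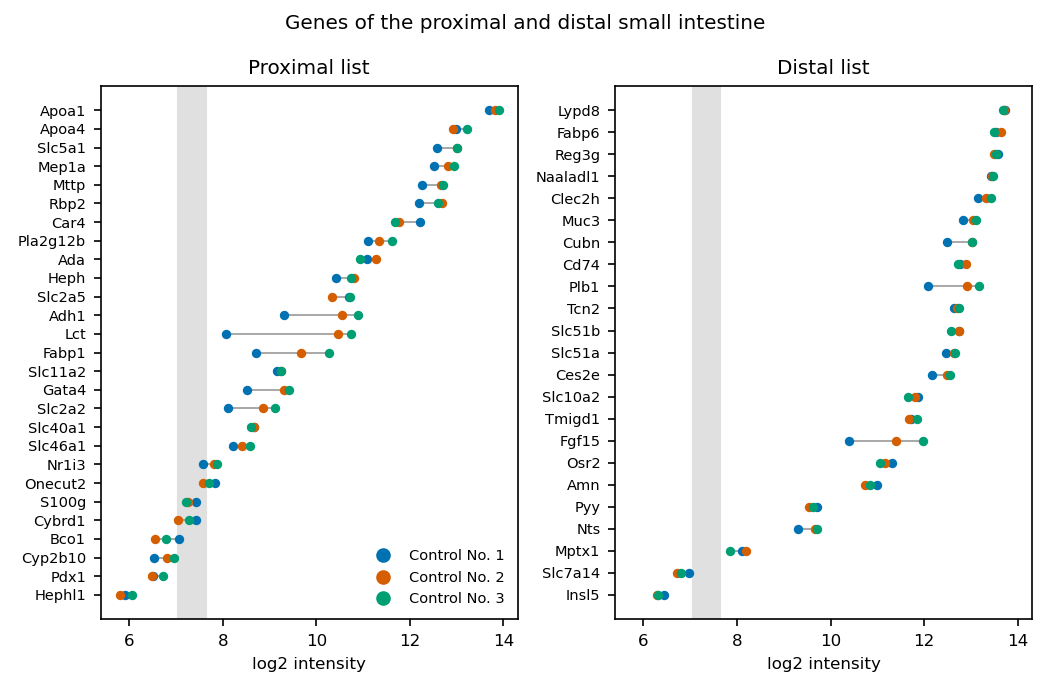
Log2 intensity (horizontal axis) on each control array for the 27 proximal and 23 distal genes, ordered by mean; a line joins the lowest and highest array, and the grey band spans the 3 thresholds. Lct, Adh1, Fabp1 and Fgf15 have the longest lines with Control No. 1 lowest, while Pdx1, Cyp2b10, Slc7a14 and Insl5 lie in or under the band.

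Goblet cell genes were above background in 20 of 21 cases (median 9.59). Agr2 (12.89 ± 0.09), needed to fold Muc2, and Spink4 (12.72 ± 0.29), a secreted inhibitor, followed the 4 goblet products of the top 25. Spdef, the transcription factor that completes goblet differentiation, measured 9.30, 8.75 and 8.98. Retnlb, a goblet product of the colon that infection induces, was not above background (5.94). Paneth cell genes were above in 9 of 12 cases (median 10.05), counting Guca2b, which is not particular to Paneth cells. After Lyz1 and Guca2b came Pla2g2a (12.93 ± 0.13), a phospholipase that attacks bacterial membranes, Defa24 (12.28 ± 0.24), an alpha-defensin, Itln1 (11.27 ± 0.31), a lectin, and Mmp7 (11.22 ± 0.32), which activates defensin precursors. Ang4, an antimicrobial ribonuclease, measured 9.41, 8.29 and 8.42 and was highest in Control No. 1. Nod2 (7.22), Ang6 (7.18) and Ang5 (6.52) were not above background. Near-identical defensin genes share probes, and the 6 probe sets that carry several Defa symbols had means from 11.31 to 12.47.

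Defence genes of the epithelium gave 18 of 29 above background (62.1%, against 42.2% of all genes). Their list median was 8.73, with a wide spread between members. Reg3b measured 13.75, 13.73 and 13.71, and Reg3g 13.58, 13.50 and 13.54. Dmbt1 (12.90 ± 0.05), a scavenger protein of mucus, Il22ra1 (11.83 ± 0.11), the receptor chain for IL-22, and Nos2 (11.56 ± 0.18), inducible nitric oxide synthase, followed. Members not above background were Reg1 (6.92) and Reg2 (5.44), relatives of the bright Reg3 genes, Lcn2 (6.88), Camp (6.73) and Hamp (5.68), inducible antimicrobial or iron-regulating peptides, Nod1 (7.47), and the Toll-like receptors Tlr9 (7.29), Tlr4 (6.77), Tlr6 (6.42), Tlr7 (5.66) and Tlr8 (5.61). Antigen presentation genes were above background in 13 of 16 cases (median 10.20). B2m (13.20 ± 0.08), the light chain of class I molecules, and the class II genes Cd74 (12.80 ± 0.09), H2-Ea (12.17 ± 0.21), H2-Aa (12.11 ± 0.13) and H2-Eb1 (11.79 ± 0.20) led, with Tapbp (11.45 ± 0.19), which loads class I. H2-Ea measured 12.05, 12.42 and 12.05, highest in Control No. 2. Class II genes are also made by B cells and dendritic cells. Among dendritic cell genes Itgax (7.73 ± 0.10) was just above background and Flt3 (6.62) and Xcr1 (6.67) were not. The myeloid genes C1qb (8.41 ± 0.46) and Tyrobp (8.23 ± 0.30) were above it. B cell and further myeloid genes are given below, and which cells gave the class II signal was not tested.

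Among enteroendocrine genes several hormones were above background, while several regulators were not. In all, 13 of 29 were above background (44.8%, close to the 42.2% of all genes; median 7.20). Gcg, the glucagon and GLP-1 precursor, measured 10.67, 10.32 and 10.45. Sst, somatostatin, measured 10.41, 9.86 and 10.13, and Chga, a granule protein of all endocrine cells, 10.10, 9.99 and 9.88. Pyy (9.62 ± 0.08) and Nts (9.56 ± 0.22), hormones of the lower small intestine, and Chgb (8.88 ± 0.02) followed. Cck, a hormone of the upper intestine, measured 7.84, 7.52 and 7.76 and was under the threshold in Control No. 2 alone. Not above background on any array were the transcription factors Neurog3 (6.61), Neurod1 (6.76), Pax6 (6.65), Isl1 (6.51) and Nkx2-2 (6.94), which act in the endocrine lineage.

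Tuft cell genes, with a list median of 6.86, were above background in 3 of 24 cases (12.5%, against 42.2% of all genes). These were Cd24a (10.99 ± 0.09), Ptpn6 (8.44 ± 0.07) and Gfi1b (7.88 ± 0.10). Cd24a and Ptpn6 are also used by other epithelial or blood cells. The defining members Dclk1 (6.69), a kinase, Trpm5 (7.33), a cation channel of taste signalling, Pou2f3 (6.71), the transcription factor of tuft cells, and Rgs13 (5.30) were not above background.

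Stem cell genes were above background in 14 of 26 cases (53.8%, against 42.2% of all genes), with a list median of 8.07. Over the alternative settings 10 to 24 of the 26 were above it. Olfm4, a secreted glycoprotein of crypt base cells, measured 11.67, 11.62 and 11.40 and was far brighter than the rest. Slc12a2 (10.18 ± 0.05), an ion transporter of crypts, Rgmb (9.39 ± 0.26), Rnf43 (9.18 ± 0.16), a brake on Wnt receptors, Cdca7 (9.06 ± 0.20) and Prom1 (8.85 ± 0.13) followed. Lgr5, the R-spondin receptor that marks cycling stem cells, measured 8.41, 8.08 and 7.90. Ascl2, the transcription factor of these cells, was not above background (7.05). Cell cycle genes were above in 27 of 31 cases (median 8.26): Ccnd1 (10.21 ± 0.32), Pcna (9.96 ± 0.13), Stmn1 (9.81 ± 0.12), Mki67 (9.77 ± 0.09), Ccna2 (9.58 ± 0.27) and Ccnb2 (9.37 ± 0.38) were the brightest. Mki67, the proliferation antigen, was at 9.82, 9.82 and 9.67. Most members lay near the threshold: with the highest Y-linked gene as background 11 of 31 remained above it.

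M cell genes were above background in 11 of 23 cases (47.8%, close to the 42.2% of all genes; median 7.68). The brightest were Serpinb1a (12.05 ± 0.18), a protease inhibitor, and Pglyrp1 (11.60 ± 0.13), which binds bacterial peptidoglycan. Gjb2 (8.87 ± 0.05), a gap junction protein, Marcksl1 (8.76 ± 0.15), Anxa5 (8.55 ± 0.18) and Ccl9 (8.40 ± 0.27), a chemokine, followed. The defining genes were not above background: Gp2, the receptor with which M cells take up bacteria, measured 5.94, 5.95 and 6.22, and Spib, their transcription factor, 6.50, 6.81 and 6.63. Tnfaip2 (6.89), Sox8 (7.24) and H2-M2 (6.57) were not above it either. Of the members above background, Pglyrp1, Ccl9 and Anxa5 are also made by other epithelial or immune cells.

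RANK, encoded by Tnfrsf11a, is the receptor through which RANKL drives M cell formation, by way of NF-kB. In the untreated epithelium Tnfrsf11a measured 9.59, 9.54 and 9.53, with little spread. Its ligand Tnfsf11 measured 8.60, 8.21 and 8.54, and the decoy receptor Tnfrsf11b was not above background (7.38). Of 22 receptors and signalling components measured, 18 were above background (median 8.76). Nfkbib (10.78 ± 0.17) and Nfkbia (10.14 ± 0.13), inhibitors that hold NF-kB in the cytoplasm, Tab2 (10.53 ± 0.11) and Map3k7 (9.34 ± 0.16), which act upstream, and Rela (9.25 ± 0.25) were the brightest beside Tnfrsf11a. Relb (8.97 ± 0.10) and Nfkb2 (8.76 ± 0.15), the pair of the noncanonical branch, were above background, while Map3k14 (6.99), the kinase that starts this branch, and Traf5 (6.64) were not. Nfkbie, another inhibitor, measured 7.63, 7.60 and 7.84 and was under the threshold in Control No. 2 alone. Tnfsf11 and Nfkb2 were named after their values were seen.

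Transcription factors of the gut were above background in 23 of 28 cases (median 10.28). Vdr (12.35 ± 0.10), the vitamin D receptor, Hnf4a (12.28 ± 0.05) and Hnf4g (11.94 ± 0.16), regulators of enterocyte genes, Maf (12.14 ± 0.04), Klf5 (12.08 ± 0.06), a factor of crypt cells, and Isx (11.58 ± 0.11), which restrains carotenoid uptake, were the brightest. Cdx2 measured 10.47, 10.31 and 10.44. Hes1 (7.90), a Notch target, Foxa2 (7.74), Onecut2 (7.70), Pdx1 (6.57) and Cdx4 (5.19) were not above background on every array. Hes1 measured 7.92, 7.61 and 8.18 and, like Foxa2 and Onecut2, was under the threshold in Control No. 2 alone.

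All 40 nuclear genes of oxidative phosphorylation were above background (median 11.24), with Atp5d (13.36 ± 0.11), Cox7b (12.99 ± 0.09), Cycs (12.96 ± 0.09) and Atp5b (12.93 ± 0.10) at the top. All 28 genes of sterol and fatty acid synthesis were above (median 9.55), led by Scd2 (10.89 ± 0.65), a desaturase, and Hmgcs1 (10.85 ± 0.08), which acts early in cholesterol synthesis. All 24 genes of the endoplasmic reticulum, where secreted proteins fold, were above (median 9.99), with Canx (12.57 ± 0.20) and Calr (12.23 ± 0.14), its lectin chaperones, the brightest. The ketogenesis and PPARa target genes were less complete, with 14 of 20 above, led by Hadha (11.49 ± 0.12) and Cpt1a (11.44 ± 0.15), both of fatty acid oxidation. The Cyp4a10 (6.59) and Cyp4a14 (5.94) genes, which PPARa induces in liver, were not.

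Genes that handle drugs and other foreign compounds were above background in 22 of 32 cases (68.8%, against 42.2% of all genes; median 9.89). Cyp4f14 (12.88 ± 0.20), Ces2e (12.40 ± 0.20), a carboxylesterase, Ugt2b34 (12.36 ± 0.23), Gstp1 (11.97 ± 0.21), Cyp2d26 (11.82 ± 0.45) and Sult1d1 (11.62 ± 0.39) led. Cyp2d26 measured 11.37, 11.80 and 12.28, and was lowest in Control No. 1. Cyp3a11, a drug-metabolising cytochrome, was under the threshold in No. 1 and above it in No. 3, at 6.68, 7.64 and 8.59. Cyp1a1 (6.03), which the aryl hydrocarbon receptor induces, was not above background. Clock genes were above in 14 of 18 cases (77.8%), with Nr1d1 (11.57 ± 0.05), a repressor of the circadian loop, the brightest. The labels used here give no hour of sampling. Interferon-stimulated genes were above in 24 of 33 cases (72.7%), led by Irf7 (10.47 ± 0.15) and Parp14 (10.40 ± 0.26), while Ifit2 (6.15), Mx1 (6.42) and Mx2 (6.19) were not. Immediate early and heat shock genes were above in 18 of 29 cases (62.1%). Hspa8 (12.77 ± 0.15), the constitutive chaperone, led, followed by Zfp36 (10.82 ± 0.01), which destabilises cytokine messages, Klf6 (10.41 ± 0.21), Hsp90aa1 (10.32 ± 0.22), a chaperone, Btg2 (10.26 ± 0.28) and Jund (10.19 ± 0.24). Egr1 (7.50) and Fosb (6.97), transcription factors of the early response, and Hspa1a (7.56), an inducible chaperone, exceeded the threshold on some of the arrays but not on all.

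T cells, which sit between epithelial cells as intraepithelial lymphocytes, had 18 of 34 genes above background (52.9%, against 42.2% of all genes), and the list median of 7.57 lay between the thresholds of the arrays. The share alone thus says little, and single members were far brighter. Ccl5, a chemokine of effector lymphocytes, measured 11.16, 11.51 and 11.17, and Cd7, a surface protein of intraepithelial lymphocytes, 11.32, 11.01 and 10.81. The granzymes Gzma (10.29 ± 0.30) and Gzmb (10.10 ± 0.44) and the receptor chains Cd3g (9.62 ± 0.16) and Cd3e (9.50 ± 0.07) followed. Cd8a (8.97 ± 0.10), the coreceptor, Itgae (8.73 ± 0.10), the integrin that holds lymphocytes to E-cadherin, and Ptprc (8.25 ± 0.40), the common leukocyte antigen, were above background too. Cd4 (7.46), Cd8b1 (7.36), Cd3d (6.51), Cd2 (6.41) and Cd28 (6.52) were not.

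Of 21 B and plasma cell genes 5 (23.8%) were above background, against 42.2% of all genes. The brightest were Jchain (10.61 ± 0.26), which joins secreted IgA, and Ighm (9.95, 8.81 and 8.76). Cd79a (6.03), of the B cell receptor, was not. Of 34 myeloid and mast cell genes 10 (29.4%) were above. Lyz2 (10.49 ± 0.10), a lysozyme close in sequence to the Paneth gene Lyz1, and the mast cell proteases Mcpt2 (9.19 ± 0.50) and Mcpt1 (8.80 ± 0.31) led. Csf1r (7.56), the macrophage growth factor receptor, was not above on every array. Of 27 fibroblast and smooth muscle genes 9 (33.3%) were above, among them Mylk (9.36 ± 0.01), Vim (9.27 ± 0.07), Acta2 (9.43, 7.88 and 8.62) and Col1a1 (8.29 ± 0.15). Without Control No. 2, whose threshold was the highest, the counts were 8 of 21, 16 of 34 and 19 of 27. That of T cells was 22 of 34, and that of all genes rose from 8408 to 9806 of 19938. On at least 1 array 23 of 27 fibroblast and smooth muscle genes and 24 of 34 T cell genes were above it, so these lists have no settled order. Endothelial genes gave 2 of 20, Lyve1 (8.01 ± 0.18) and Egfl7 (7.96 ± 0.09), with Pecam1 at 6.66, Cdh5 at 6.95 and Plvap at 6.90. Neurons and glia gave 1 of 17, Ret (7.69 ± 0.12). None of 6 red cell genes was above background, although the 2 probe sets shared by alpha globins had means of 9.12 and 9.17.

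Neighbouring organs were little represented. None of 18 stomach genes was above background (median 6.66), and Tff1 (7.57) and Muc5ac (6.61) were not. Of 16 liver genes Cps1 (11.39 ± 0.11) and Otc (10.74 ± 0.12) were above, urea cycle enzymes that intestine also makes, while Alb (6.14, 6.03 and 6.04) was not. Of 22 pancreatic genes 6 (27.3%, against 42.2% of all genes) were above. These were Zg16, which goblet cells make, Spink1 (11.92 ± 0.19), Clps (10.91 ± 0.50), Rnase1 (8.20 ± 0.17), Sycn (8.10 ± 0.04) and Ctrl (7.69 ± 0.06). The acinar enzymes Cpa1 (6.71), Prss2 (6.40) and Cel (6.03) were not. Of 18 colon genes 4 (22.2%) were above, namely Car4 (11.89 ± 0.29), Slc26a3 (10.79 ± 0.44), Mettl7b (9.85 ± 0.20) and Saa1 (8.01 ± 0.63). The posterior homeobox genes Hoxb13 (6.07), Hoxd13 (6.47) and Hoxa13 (5.73) were not. Without Control No. 2 the counts were 3 of 18 for stomach, 4 of 16 for liver and 2 of 17 for neurons and glia. That of the photoreceptor, sperm, muscle and skin genes was 6 of 38, and that of all genes 9806 of 19938.

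**Figure D4:**
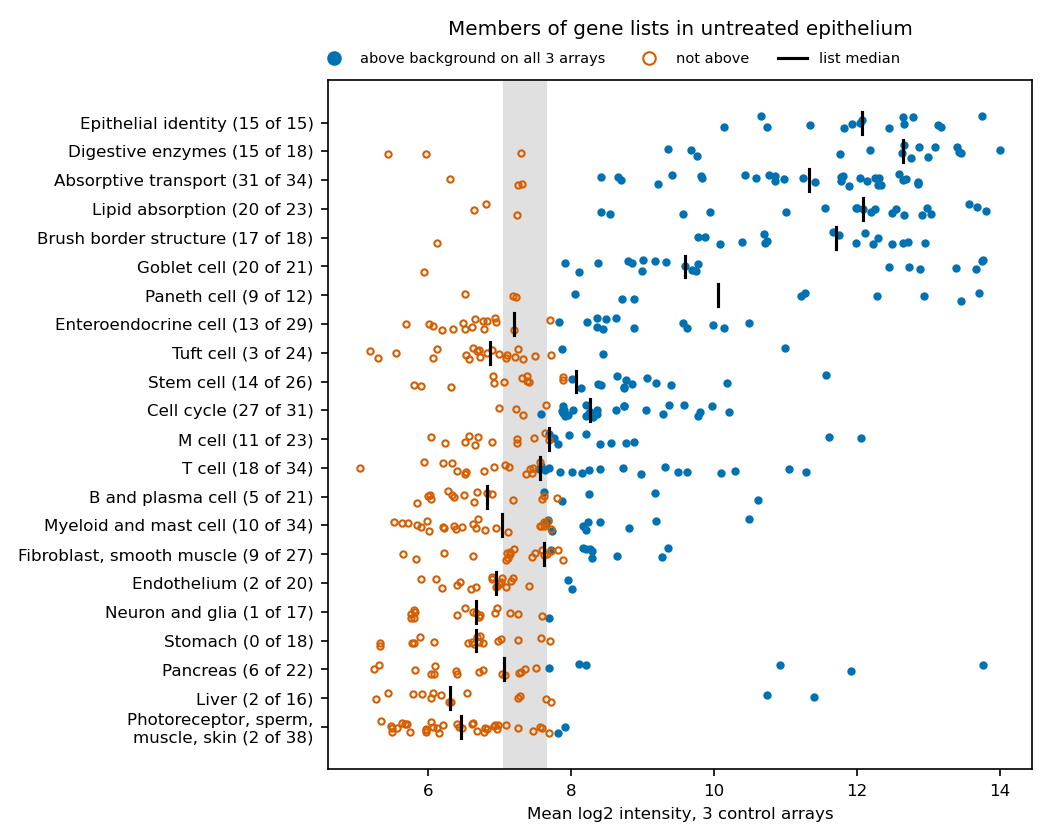
Mean log2 intensity over the 3 control arrays (horizontal axis) of each measured member of 22 gene lists; filled points were above background on all arrays, open points were not, the bar is the list median and the grey band spans the thresholds. Enterocyte lists sit mostly above 9, enteroendocrine, M cell and T cell lists straddle the band, and the tuft, endothelial, stomach and liver lists lie mostly in or under it.

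Of 300 genes for microRNAs, 54 (18%) were above background, and the RefSeq table held a mature sequence for 45 of these. The array reads the gene's locus and not the mature arm. Sequences of 4 are printed because miR-192, miR-194, miR-215 and the miR-200 family are known as abundant in gut epithelium and 2 of these share a seed; they were chosen after their values were seen. Seeds, bases 2 to 8, which pair with target messages, are in capitals.
mmu-miR-192-5p: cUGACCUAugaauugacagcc
mmu-miR-215-5p: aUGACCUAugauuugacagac
mmu-miR-194-5p: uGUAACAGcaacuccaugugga
mmu-miR-200b-3p: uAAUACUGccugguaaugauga
The seed UGACCUA is the same in miR-192-5p and miR-215-5p. Mir194-1 and Mir215 lie together on chromosome 1 (chr1:185313325-185313346 and chr1:185313610-185313630 for these arms, plus strand), and Mir192 lies with Mir194-2 on chromosome 19 (chr19:6264857-6264877 and chr19:6264658-6264679, plus strand). Mir194-1 measured 9.91, 9.09 and 9.60, and Mir215 9.64, 8.81 and 9.24. Mir192 measured 9.75, 8.88 and 9.19, and Mir200b 9.05, 8.41 and 8.93. All 4 loci were highest in Control No. 1 and lowest in Control No. 2. Of 82 microRNA genes above background on at least 1 array, 43 were highest in No. 1 and 48 lowest in No. 2. Among all 11518 genes above it on at least 1 array, 37.4% were highest in No. 1 and 43.2% lowest in No. 2. Not all of the miR-200 family was above background, since Mir200a was at 8.11 but Mir200c at 6.60 and Mir141 at 5.67. The brightest microRNA gene was Mir692-1, at 10.95.

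The spread between the 3 arrays was small for most genes. Among the 11518 genes above background on at least 1 array the median SD was 0.132 and the 95th percentile 0.332. It hardly depended on brightness: over 4 equal groups of the 8408 genes above background, ordered by mean, the median SD ran from 0.127 to 0.137. Over these 8408 genes Control No. 1 departed furthest. Its root mean square departure from each gene's mean was 0.191, against 0.130 in No. 2 and 0.126 in No. 3. Over all 19938 genes the arrays were closer to each other, at 0.155, 0.140 and 0.131. Over the 8408 genes the median absolute difference was 0.199 between No. 1 and No. 2, 0.182 between No. 1 and No. 3, and 0.0951 between No. 2 and No. 3. Without Control No. 1 the median SD was 0.0754.

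A log2 range of 1 or more between the lowest and the highest array was found for 133 of the 11518 genes (1.15%). Of these, 33 were receptor genes, 31 were not protein-coding and 69 were other protein-coding genes. Among the 69, the lowest array was Control No. 1 for 36, No. 2 for 18 and No. 3 for 15. Without No. 1 the count of all such genes was 50, without No. 2 it was 70 and without No. 3 it was 56. The 20 genes of largest SD were of a few kinds. Small RNAs were Snord118 (12.08, 9.02 and 10.81), which acts in ribosome assembly, Rny1 (9.82, 7.19 and 7.40), Vaultrc5 (11.20, 9.45 and 9.86), and Snord49a, Snord49b, Snord73b, Snord15a, Snord53 and Snord35a, which guide RNA modification. All of these were highest in Control No. 1, and Snord49b, for example, stood at 13.02, 10.87 and 10.68. The immunoglobulin segments Igkv4-91 (9.41, 8.97 and 5.91) and Igkv8-30 (8.90, 6.97 and 7.28), which differ between individual plasma cell clones, were among them. H2bc3 (10.07, 8.65 and 8.55), a replication-dependent histone, was high in No. 1. Olfr1014, Olfr492 and Csmd3 were highest in Control No. 2 and lowest in No. 3, the order most receptor genes shared.

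Enterocyte genes made up the rest of the 20. Lct was followed by Hsd17b6 (7.15, 8.64 and 8.94), a steroid and retinol dehydrogenase, Cyp3a11, Slc7a8 (9.81, 11.27 and 11.46), an amino acid transporter, and Slc5a12 (10.37, 11.96 and 11.83), which takes up lactate and related acids. Each of these 5 was lowest in Control No. 1. Further genes with a range of 1 or more, named after their values were seen, had the same low array: Fgf15, Fabp1, Adh1 (9.30, 10.56 and 10.89), Slc2a2 (8.11, 8.87 and 9.13), the glucose exporter, and Pck1 (9.01, 9.86 and 10.23), of glucose synthesis. Muscle genes had another order. Acta2, Myl9 (8.45, 6.78 and 7.75), Actg2 (8.07, 6.78 and 7.63) and Des (7.72, 6.39 and 7.30) were highest in Control No. 1 and lowest in No. 2. Cxcl9 (8.62, 9.08 and 7.77) and Gbp2b (8.56, 8.99 and 7.55), both induced by interferon, were lowest in Control No. 3.

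The same departures ran through whole lists. For comparison, among the 11518 genes 41.7% were lowest in Control No. 1, 43.2% in No. 2 and 15.2% in No. 3, and 37.4%, 21.8% and 40.9% were highest in them. Counts here are over members above background on at least 1 array. Control No. 1 was the lowest array for 13 of 16 digestive genes, 25 of 33 transport genes and 17 of 22 lipid genes. It was also lowest for 12 of 17 brush border genes and 19 of 27 xenobiotic genes. This was not particular to enterocyte lists. The same array was lowest for 12 of 15 epithelial identity genes and 14 of 24 endoplasmic reticulum genes. Of the housekeeping genes, which all cells use, 14 of 19 were lowest there. Control No. 1 was lowest for 15 of 23 proximal genes. It was lowest for 10 of 21 distal genes, close to the 41.7% of all genes. Crypt genes went the other way: Control No. 1 was the highest array for 16 of 20 stem cell genes, 21 of 30 cell cycle genes and 7 of 11 Paneth genes. The same held for 23 of 28 sterol genes, 11 of 15 enteroendocrine genes, 14 of 16 myeloid and mast cell genes and 16 of 23 fibroblast and smooth muscle genes. Lgr5, for example, was 8.41 in No. 1 against 8.08 and 7.90, and Ube2c, of mitotic exit, 9.79 against 9.12 and 8.93. With the values as deposited or centred on the median the sterol count was 19 of 28 and the cell cycle count 19 of 30.

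The gradients were not confined to protein-coding genes. Of 43 snoRNA and scaRNA genes 41 were highest in Control No. 1, among them all 24 of the Snord genes, with a median departure of 0.43 from the genes' means. Of 20 replication-dependent histone genes 17 were highest there, with a median departure of 0.45. Control No. 2 was the highest array for 15 of 27 interferon-stimulated genes and 12 of 24 T cell genes, and Control No. 3 the lowest for 14 of 27 and 13 of 24. Control No. 2 was also the highest for 15 of 24 endoplasmic reticulum genes and the lowest for 19 of 23 fibroblast and smooth muscle genes. Of 14 ketogenesis and PPARa target genes 12 were highest in Control No. 3. Each count in these lists had the same leading array with the values as deposited, centred on the median or quantile normalized over the control arrays alone. Villus and crypt lists, small RNAs, histones, muscle genes and receptor genes moved with the arrays at the same time. The labels used here give no batch or preparation for these 3 arrays, and the part of each in the others was not tested.

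**Figure D5:**
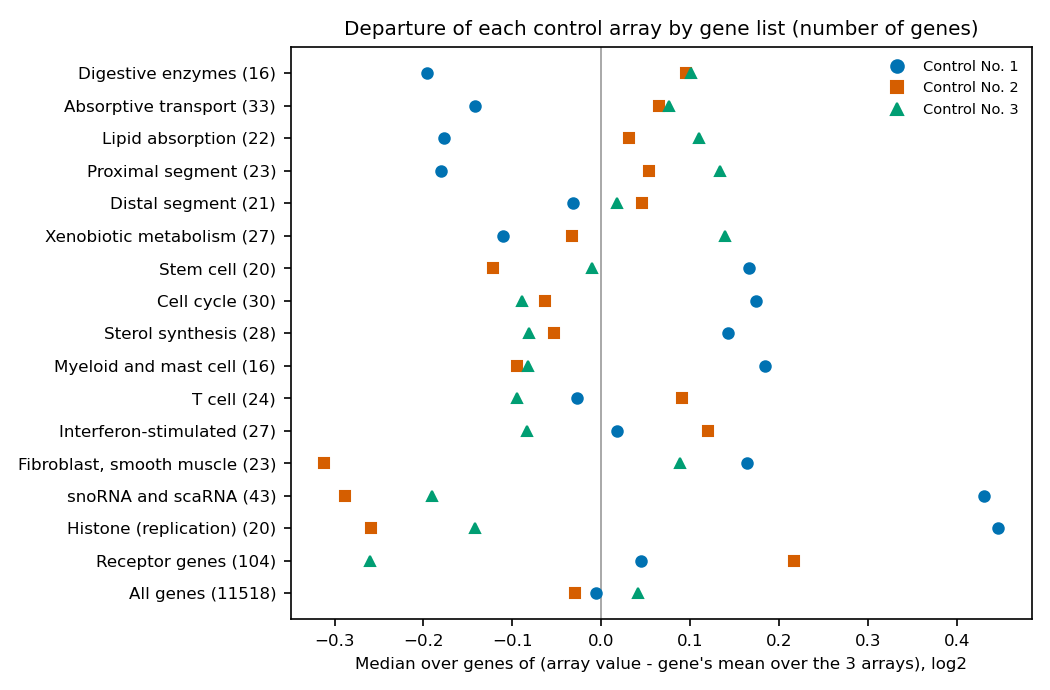
Median over the genes of each list of the difference between an array's log2 value and the gene's mean over the 3 arrays (horizontal axis); numbers in brackets are genes above background on at least 1 array. Control No. 1 lies left of 0 for the enterocyte and xenobiotic lists and right of 0 for stem cell, cell cycle, sterol, small RNA and histone lists, while over all 11518 genes the 3 medians lie between -0.03 and 0.04.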

How the data were processed

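RNA of 15 samples was measured on whole-transcript Affymetrix arrays, and the 3 arrays of untreated mice are described. The authors' deposited values are linear intensities, one for each of 28853 probe sets and array. The genome build is mm9, per the submitters' processing notes. How probes were summarised and whether arrays were normalized before deposit is not given in the sources used here. The intensities were taken to log2 with a pseudocount of 0 and quantile normalized over the 15 arrays with limma 3.58.1 in R 4.3.3. The rest was computed in Python 3.11.15 with pandas 2.3.3. Of the probe sets, 21789 carried 1 symbol, 1621 several, and 5443 were not listed. Of the 19938 genes, 999 had over 1 probe set and were represented by the one whose mean over the 15 arrays was highest. A RefSeq entry was found for 19855 genes and 0 symbols changed. The table held 0 columns of samples from another series.

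A gene was above background if it exceeded the 95th percentile of the receptor genes on each of the 3 control arrays. Counts, medians, SDs and ranges follow, with no test. The 41 gene lists named 1006 symbols, of which 893 had a probe set of their own and 533 were above background. The lists share some genes, and a symbol without a probe set of its own was not measured. The members and lists were chosen with earlier results of these data known. Named were the 25 brightest genes, up to 6 of the brightest members of each list with a set of defining markers and members not above background, the 20 genes of largest SD (without unnamed clones), Xist and Y-linked genes. Genes used as further examples of a list or of a spread, and the microRNAs, were chosen after their values were seen. The computation of counts and spreads was tried on simulated data. Expressed genes were simulated well above silent ones there, so calls near the thresholds were not tested. Promoter and microRNA sequences are from RefSeq on GRCm38.p6, and were matched by gene for 15562 genes and 270 of 300 microRNA genes. Alternatives were 3 other scalings, an offset of 16, 2 other choices of probe set, other backgrounds, a rule on the mean, no filter on dim genes, and each array left out in turn.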

Additional observations from a re-analysis of the deposited data

Results flagged for a closer look

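Of the 5443 probe sets that the annotation used here does not list, 1522 were above background on every control array. They carry signal above the receptor threshold in data that no comparison uses, and they are not named here. Their share of 28% is lower than the 42.2% of named genes. Among the probe sets that carry several symbols, 889 of 1621 (54.8%) were above background on every control array.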

How the results depend on the processing

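The background level, the mean of the 3 thresholds, was 7.35. It was 7.87 with the 99th percentile of the receptor genes, 8.22 with the highest Y-linked gene (Sry) and 6.05 with the highest Y-linked gene other than Sry, an alternative chosen after seeing the data. Under that last level 15495 genes were above background, against 8408, and under the others run the count lay between 5856 and 9865. The median SD between arrays was 0.132, and from 0.0754 to 0.142 with 1 array left out, the lowest without Control No. 1. The count of genes with a range of 1 or more was 133, 214 with no filter on dim genes, and from 50 to 70 with 1 array left out, since a range over 2 arrays cannot exceed that over 3. The list members above background numbered 533, and from 421 to 785 over the alternatives. Of 533 recounts of single lists 479 were within 1.5 times the reported count and 54 were not, of which 7 came from leaving out Control No. 2 and the others from another background or the rule on the mean. Of 612 levels of named genes 32 moved by over 1 SD, mostly among the brightest genes, whose SD is small; from 23 to 25 of the 25 brightest genes kept their place in that group. The genes shared by the 100 brightest numbered from 78 to 96. No paired analysis was possible because the 3 arrays form a single group and no test was made.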

Other observations

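The 25 probe sets that carry Gapdh among several symbols had means from 12.66 to 13.76. Their median of 13.47 lay in the range of the 25 brightest genes, which ended with Clca1 at 13.38, and the lowest lay under it. They were left out of the ranks because they name no gene alone. Probe sets shared by beta globins, of red blood cells, had means of 7.90 and 7.96. Of 675 genes for long noncoding RNAs 101 (15%) were above background on every control array, against 8152 of 18555 protein-coding genes (43.9%). Of 14 immunoglobulin genes with a probe set of their own 6 (42.9%) were above background, close to the 42.2% of all genes. Of the 12 above it on at least 1 array, 10 were highest in Control No. 1, against 37.4% of all 11518 such genes.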
